A study of Mus musculus with 7 samples.

Results

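Nos1, Chodl and Tacr1 are 3 genes whose joint expression marks the long-range nitric oxide neurons of the cortex, a sparse class of GABAergic cells. They were picked out by symbol, as paired with the Ensembl gene identifier in the deposited tables. The choice was made with earlier results of these data known. All 3 were found among the 47729 genes of the count table, and all 3 were among the 19684 genes tested, the filter being 10 counts or more in 3 libraries or more. The study sequenced total RNA of freshly dissected forebrain of mice at postnatal day 15 (P15), on an F1(C57BL/6 X 129Sv) background. Control pools came from Lhx6+/- mice (n = 4) and mutant pools from Lhx6-/- mice (n = 3), each pool holding 2 animals and both genotypes carrying the same null allele, Lhx6tm2Vpa. The controls therefore lacked 1 functional copy of Lhx6 and were not wild type. The allele was constitutive, so that functional Lhx6 was absent by design from every mutant cell that would have used it. Some Lhx6 RNA remained, as given below. The question put to the data here was how the 3 marker genes of this neuron class differed between the genotypes, by how much, and whether they differed alike.

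Lhx6 encodes a LIM-homeodomain transcription factor of interneurons born in the medial ganglionic eminence (MGE), where it acts in the specification of the cells that go on to express somatostatin (Sst) and parvalbumin (Pvalb). Long-range nitric oxide neurons belong to the somatostatin lineage, send axons over long distances within and between cortical areas, and are known for being active during sleep. Nos1 encodes neuronal nitric oxide synthase, the enzyme that makes nitric oxide from arginine when calcium rises in the cell. Chodl encodes chondrolectin, a membrane protein with a C-type lectin domain and the most selective marker of the class. Tacr1 encodes the receptor for substance P, a tachykinin peptide. Nos1 is also transcribed in many other neurons of the forebrain and Tacr1 in other interneurons and in cholinergic cells of the striatum, so that in whole-forebrain RNA only Chodl comes close to a readout of the class alone.

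The 3 genes lie on different chromosomes, all on the plus strand of GRCm38. Nos1 (ENSMUSG00000029361) spans chr5:117781032-117958840 with 7 annotated transcripts and 33 merged exons of 11151 bases in all. Chodl (ENSMUSG00000022860) spans chr16:78930948-78951733 with 3 transcripts and 7 merged exons of 3820 bases. Tacr1 (ENSMUSG00000030043) spans chr6:82402334-82560104 with 3 transcripts and 7 merged exons of 6491 bases. Of the words of 36 bases in their transcripts, the length of a read, 2.16% in Nos1, 1.94% in Chodl and 1.09% in Tacr1 also occurred in another gene, so few of their reads could be split with a copy elsewhere. Nos1 was the only one with an antisense neighbor over its exons: Gm26995 overlapped 268 exon bases, 2.4% of the total, and held at most 2 counts in any library.

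The sequences before the transcription starts that RefSeq gives (GRCm38.p6) are shown because the study removed a transcription factor, and homeodomain factors commonly bind a TAATTA core. All 3 genes had an entry. The sequences run 5′ to 3′ in lower case, and capitals mark the one motif match that was found, CGTCA, the reverse complement of TGACG, a partial cAMP response element.
Nos1, chr5:117866589-117866838, 250 bases: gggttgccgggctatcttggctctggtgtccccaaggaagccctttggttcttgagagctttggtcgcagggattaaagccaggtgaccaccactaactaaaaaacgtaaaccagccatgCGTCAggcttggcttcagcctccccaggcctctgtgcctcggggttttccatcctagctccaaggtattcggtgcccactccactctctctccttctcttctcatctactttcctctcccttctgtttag
Chodl, chr16:78930698-78930947, 250 bases: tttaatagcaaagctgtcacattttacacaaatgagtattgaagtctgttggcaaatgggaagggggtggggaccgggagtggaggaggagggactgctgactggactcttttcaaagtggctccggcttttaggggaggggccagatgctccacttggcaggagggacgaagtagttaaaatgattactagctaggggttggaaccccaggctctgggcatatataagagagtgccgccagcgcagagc
Tacr1, chr6:82402225-82402333, 109 bases: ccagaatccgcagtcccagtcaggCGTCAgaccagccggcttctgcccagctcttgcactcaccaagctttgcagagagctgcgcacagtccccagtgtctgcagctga

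The search covered windows of 300 bases on both strands, reaching past the printed bases. TAATTA and the whole cAMP response element TGACGTCA occurred in none of the 3 windows. The partial element TGACG, which the whole element also contains, occurred 130 bases before the RefSeq start of Nos1 and 226 bases before that of Tacr1. Of 32851 RefSeq windows of the same length, 5.29% held TAATTA, 1.79% held TGACGTCA and 20.8% held TGACG, so the share of windows without the first 2 motifs was high throughout. The RefSeq start of Nos1 coincides with the start of merged exon 5 of the gene, and the bases printed for it therefore lie in the intron before that exon. That of Tacr1 lies at merged exon 2, and the bases printed for Tacr1 stop before merged exon 1. Whether the bases printed for Nos1 act as a promoter was not tested.

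Libraries summed to between 32556304 and 38069151 expected counts, and are called here by the number in their column names: controls 2, 3, 10 and 11, and mutants 5, 12 and 13. A count of 0 allows up to 3 counts, between 0.0788 and 0.0921 CPM (counts scaled to the library total) depending on the library, for counting error only. Lhx6 itself, the targeted gene, stood at 615, 522, 476 and 522 normalized counts in controls 2, 3, 10 and 11 and at 70.9, 76.6 and 70.1 in mutants 5, 12 and 13, so every library matched its label. The mutants kept 13.6% of the control mean. Libraries 10 and 11 differed from each other far less (chi-square per degree of freedom 10.5), as did libraries 12 and 13 (9.93), than any other pair of a genotype (36.9 to 70.4). The low-numbered libraries 2, 3 and 5 and the high-numbered libraries 10 to 13 were taken as sets by their numbers. Each set held both genotypes, and the 3 genes are also given within each set. The likeness of pairs joined only 10 with 11 and 12 with 13. Libraries 2 and 3 differed by 36.9, and no control was compared with a mutant, so the sets themselves were not tested. For other genes the sets are named where they change a call. Control library 3 was the only one with counts of Gabra6, a marker of cerebellar granule cells (12.1 normalized counts, against 0 in the other 6), and had the most Pcp2, a Purkinje cell marker (53.2, against 7.68 to 27.4 in the other 6). The hindbrain marker Hoxa5 was at 0 in all 7 libraries. Hoxb3, also listed as a cerebellar and hindbrain gene, had 1 count in control library 3 and in each mutant library, and 0 in controls 2, 10 and 11. En2, of the same list, stood at 19.2 to 28.1 normalized counts in controls, highest in library 3, and at 15.3 to 16.6 in mutants.

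Nos1 and Chodl were lower in the mutant forebrain, and Tacr1 was not called. Of the 3 genes, 2 passed the threshold of 0.05 on the adjusted p of edgeR's quasi-likelihood test, both in the lower direction, where 4.85% of all tested genes were called in either direction, 1.87% lower and 2.97% higher. DESeq2 and limma-voom called the same 2 genes lower, where they called 8.8% and 4.89% of the genes they tested. With the set as a covariate edgeR called 2205 genes, against 954 in the main fit. The counts of called genes in the lists below are read against these backgrounds. The genotypes did not overlap for the same 2 genes, as for 19.7% of all tested genes. In RNA of whole forebrain, fewer cells that express a gene and less of its RNA per cell cannot be told apart. The p-values measure the spread between pools of animals.

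Nos1, the nitric oxide synthase of neurons, was present at 2182, 1363, 2016 and 2010 normalized counts in controls 2, 3, 10 and 11. In mutants 5, 12 and 13 it was present at 1164, 1156 and 1171. The mutant libraries were nearly equal and all lay below every control, but control library 3 stood apart from the other controls and only a little above the mutants. The mean fell from 1893 ± 362 (SD, n = 4) in controls to 1164 ± 7.58 (SD, n = 3) in mutants, 61.5% of the control level. On the log2 scale the difference was −0.70 (SE 0.149, 95% confidence interval −1.04 to −0.36), with an adjusted p of 0.0337 from edgeR's quasi-likelihood test (Benjamini-Hochberg). By p-value Nos1 ranked 726 among the tested genes, and by the size of its fold change 142 among the 369 genes called lower.

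The spread of Nos1 was uneven. The coefficient of variation was 19.1% in controls, where counting error alone gives 2.32%, and 0.651% in mutants, where counting error alone gives 2.90%, so the mutant libraries lay closer together than counting error would place them on average. Control library 3 decided much of the error: without it the difference was −0.83 with an adjusted p of 0.00171 by edgeR. Without any other single library the call was lost, with adjusted p-values between 0.0673 (without control library 2) and 0.135 (without mutant library 13) by edgeR and differences between −0.70 and −0.63. Library 3 was also the library with Gabra6 counts and the most Pcp2, given above, and the part of these in its Nos1 level was not tested.

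Within the high-numbered libraries Nos1 differed by −0.78 (edgeR adjusted p = 0.000551), and within the low-numbered libraries by −0.61, which was not called (edgeR adjusted p = 0.431, with 2 controls and 1 mutant whose spread was taken to equal that of the controls). With the set as a covariate the difference was −0.72 (edgeR adjusted p = 0.0160). The difference between these within-set effects was −0.18 (SE 0.307) by edgeR's interaction term. With 1 mutant library in the low-numbered set, this term cannot decide whether the sets differed in their Nos1 effect.

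**Figure D1:**
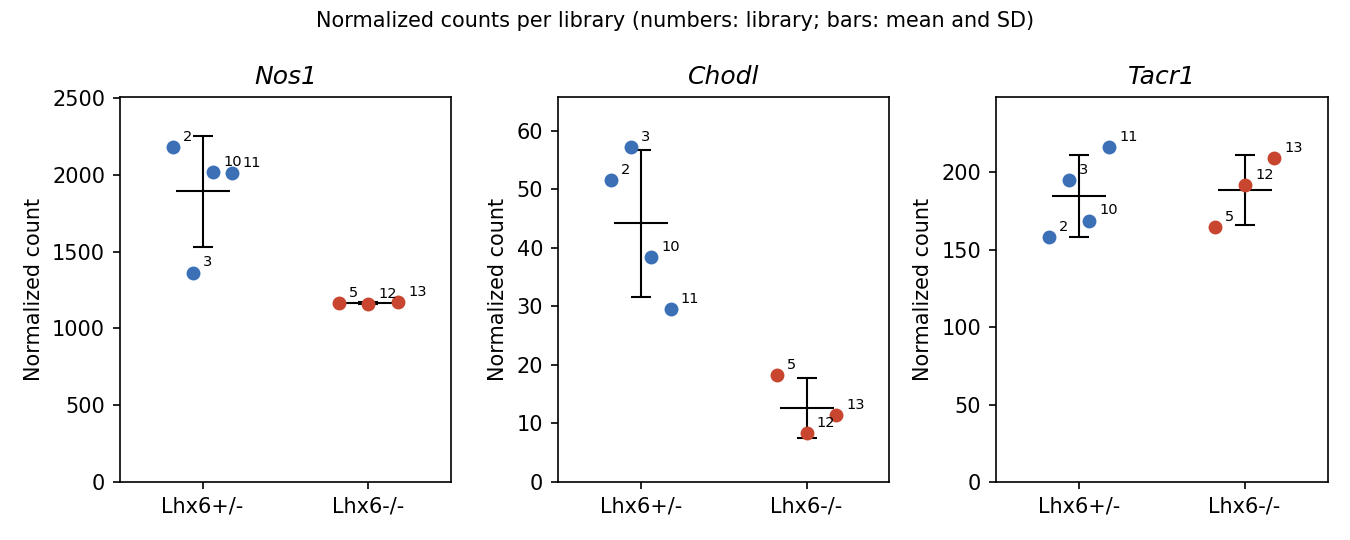
Normalized counts (y axis, linear from 0) of Nos1, Chodl and Tacr1 in each Lhx6+/- control library (blue, n = 4) and Lhx6-/- mutant library (red, n = 3), numbered by library, with the mean and SD of each genotype as black bars. The mutant libraries lie below every control for Nos1 (1156 to 1171 against 1363 to 2182) and Chodl (8.28 to 18.2 against 29.5 to 57.2), and among the controls for Tacr1.

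Chodl, the marker most particular to the class, had the larger relative difference and the fewest reads. It was present at 51.5, 57.2, 38.4 and 29.5 normalized counts in controls 2, 3, 10 and 11, from raw counts of 47, 57, 40 and 29. In mutants 5, 12 and 13 it was present at 18.2, 8.28 and 11.4, from 19, 8 and 12 counts. Every mutant library lay below every control, and within each genotype the low-numbered libraries were the higher ones. The mean fell from 44.2 ± 12.6 (SD, n = 4) to 12.6 ± 5.08 (SD, n = 3), 28.6% of the control level. The log2 difference was −1.79 (SE 0.366, 95% confidence interval −2.63 to −0.96), with an adjusted p of 0.0289 by edgeR's quasi-likelihood test, and by size it ranked 17 among the 369 genes called lower.

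Chodl RNA was not lost: the mutant counts of 8 to 19 were all above the 3 counts that a count of 0 allows. At these counts, counting error alone gives a coefficient of variation of 15.2% in controls and 27.7% in mutants, where 28.5% and 40.3% were measured. Within the high-numbered libraries the difference was −1.76 (edgeR adjusted p = 0.0266), and within the low-numbered libraries −1.57 (edgeR adjusted p = 0.358, with 1 mutant library). With the set as a covariate it was −1.68 (edgeR adjusted p = 0.00586), and the within-set effects differed by −0.20 (SE 0.548, unadjusted p = 0.728 by edgeR's interaction term). The call was lost on leaving out control library 2 (edgeR adjusted p = 0.0646), control library 10 (0.0591), mutant library 12 (0.112) or mutant library 13 (0.134), and held without each of the others. DESeq2 with its shrinkage prior on fold changes gave −0.87, less than the unshrunken difference by over 1.5 times, and still called the gene.

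Tacr1, the substance P receptor, did not follow the other two. It was present at 158, 195, 169 and 216 normalized counts in controls 2, 3, 10 and 11 and at 165, 191 and 209 in mutants 5, 12 and 13. The mutant libraries lay inside the range of the controls. The means were 185 ± 26.3 (SD, n = 4) and 189 ± 22.4 (SD, n = 3), a log2 difference of 0.03 (SE 0.155, 95% confidence interval −0.32 to 0.38) that did not pass the test (edgeR adjusted p = 0.951). The sign of so small a difference was not stable: it was −0.0039 with the set as a covariate, −0.10 within the low-numbered libraries and 0.07 within the high-numbered ones. The whole interval lay above the differences measured for Nos1 and Chodl.

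**Figure D2:**
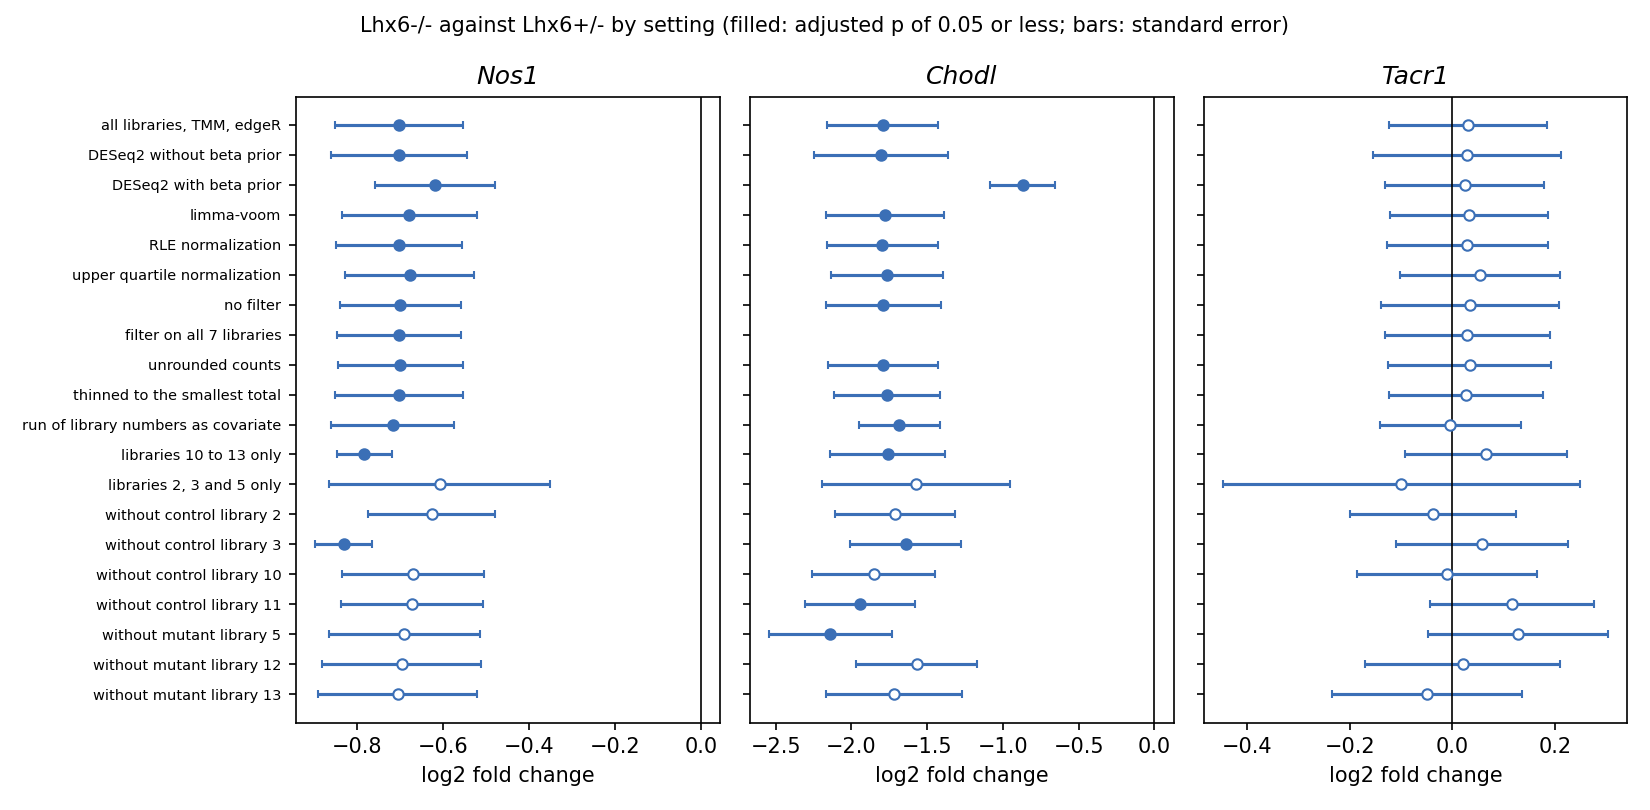
Log2 fold change of Lhx6-/- against Lhx6+/- (x axis, a separate linear scale for each gene) for Nos1, Chodl and Tacr1 under the test as reported and each alternative (y axis), with standard errors as bars and filled points where the adjusted p was 0.05 or less. Nos1 lies between −0.83 and −0.61 and Chodl between −2.14 and −0.87 under every setting drawn, while Tacr1 lies between −0.10 and 0.13; Chodl has no point where every library had to hold 10 counts.

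Whether the 3 genes differed by different amounts was asked with the ratio of their counts within each library. The printed ratios of counts do not depend on the scaling, whereas the tests used log2 ratios of normalized counts with a pseudocount of 1, which matters most at the low counts of Chodl. The ratio of Chodl to Tacr1 was 0.326, 0.294, 0.227 and 0.136 in controls 2, 3, 10 and 11 and 0.110, 0.0432 and 0.0543 in mutants 5, 12 and 13. Every mutant ratio lay below every control ratio, and the mean log2 ratio was lower by 1.78 in mutants (−1.78). By an exact permutation test over the 35 arrangements of 4 against 3 libraries, with p as 2 times the smaller tail, p was 0.0571. This is the smallest p that this form of the test allows. After Benjamini-Hochberg adjustment over 6 ratios p was 0.0857, so no ratio could pass a threshold of 0.05 by this form. A p counted on the absolute difference, computed first and then replaced, can be smaller.

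The ratio of Nos1 to Tacr1 was 13.8, 6.99, 11.9 and 9.29 in controls and 7.06, 6.04 and 5.60 in mutants. Control library 3 lay among the mutants, and the difference in mean log2 ratio was −0.71 (exact permutation p = 0.114, adjusted p = 0.114 over the same 6). The ratio of Nos1 to Chodl was 42.3, 23.8, 52.5 and 68.2 in controls and 63.9, 140 and 103 in mutants. Mutant library 5 lay below control library 11, which belongs to the other set, and the difference was 1.07 (exact permutation p = 0.114). Within each set every mutant ratio lay above every control ratio, with differences of 0.96 in the low-numbered and 0.90 in the high-numbered libraries. The test over all 7 libraries took no account of the sets, and by it the difference between Chodl and Nos1 did not pass the threshold.

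On a scale per length the order of the levels was Nos1, Tacr1 and Chodl in both genotypes. In FPKM computed from the length of the merged exons, the controls stood at 4.76 ± 0.912 (SD, n = 4) for Nos1, 0.798 ± 0.114 for Tacr1 and 0.324 ± 0.0924 for Chodl. The mutants stood at 2.93 ± 0.0191 (SD, n = 3) for Nos1, 0.815 ± 0.0968 for Tacr1 and 0.0927 ± 0.0373 for Chodl. The neighbors in this order were further apart than their SDs in both genotypes. With the longest transcript as the length, the control levels were 5.25 ± 1.00 for Nos1, 1.03 ± 0.147 for Tacr1 and 0.489 ± 0.139 for Chodl, the last higher by over 1.5 times, in the same order. By normalized counts, 74.4% of the tested genes were lower than Nos1, 38.9% lower than Tacr1 and 17.1% lower than Chodl.

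Somatostatin and neuropeptide Y (Npy), peptides that the long-range nitric oxide neurons make along with larger groups of interneurons, moved in opposite directions. Sst stood at 5964, 6248, 4649 and 4565 normalized counts in controls 2, 3, 10 and 11 and at 669.6, 554 and 542 in mutants 5, 12 and 13. All mutant libraries lay far below the controls, with means of 588 ± 70.7 (SD, n = 3) and 5356 ± 874 (SD, n = 4) (log2 difference −3.19, SE 0.157, edgeR adjusted p = 6.37e-05). Npy rose from 2421 ± 223 (SD, n = 4) to 7818 ± 883 (SD, n = 3), a log2 difference of 1.69 (SE 0.107, edgeR adjusted p = 0.000226). Hcrtr1, the receptor for the wake-promoting peptide orexin A, stood at 194 ± 38.5 in controls and 312 ± 40.4 in mutants and did not overlap, but was not called (log2 difference 0.69, SE 0.171, edgeR adjusted p = 0.0597). It was called in 7 of 19 alternatives, among them DESeq2, limma-voom and edgeR with the set as a covariate (adjusted p = 0.0254) or without control library 2 (adjusted p = 0.0247).

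Relative to Sst, the members were higher in the mutants. The ratio of Nos1 to Sst was 0.366, 0.218, 0.434 and 0.440 in controls and 1.74, 2.09 and 2.16 in mutants. The ratio of Chodl to Sst was 0.00864, 0.00916, 0.00825 and 0.00646 in controls and 0.0272, 0.0150 and 0.0210 in mutants. Neither ratio overlapped between the genotypes, so Sst counts were lower by more than those of either gene, by 2.50 on the log2 scale for Nos1 and 1.43 for Chodl. For Tacr1 the ratio to Sst lay between 0.0265 and 0.0474 in controls and between 0.246 and 0.386 in mutants, a log2 difference of 3.21. Each of the 3 ratios gave the smallest p of the exact permutation test as used here, 0.0571, and an adjusted p of 0.0857.

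**Figure D3:**
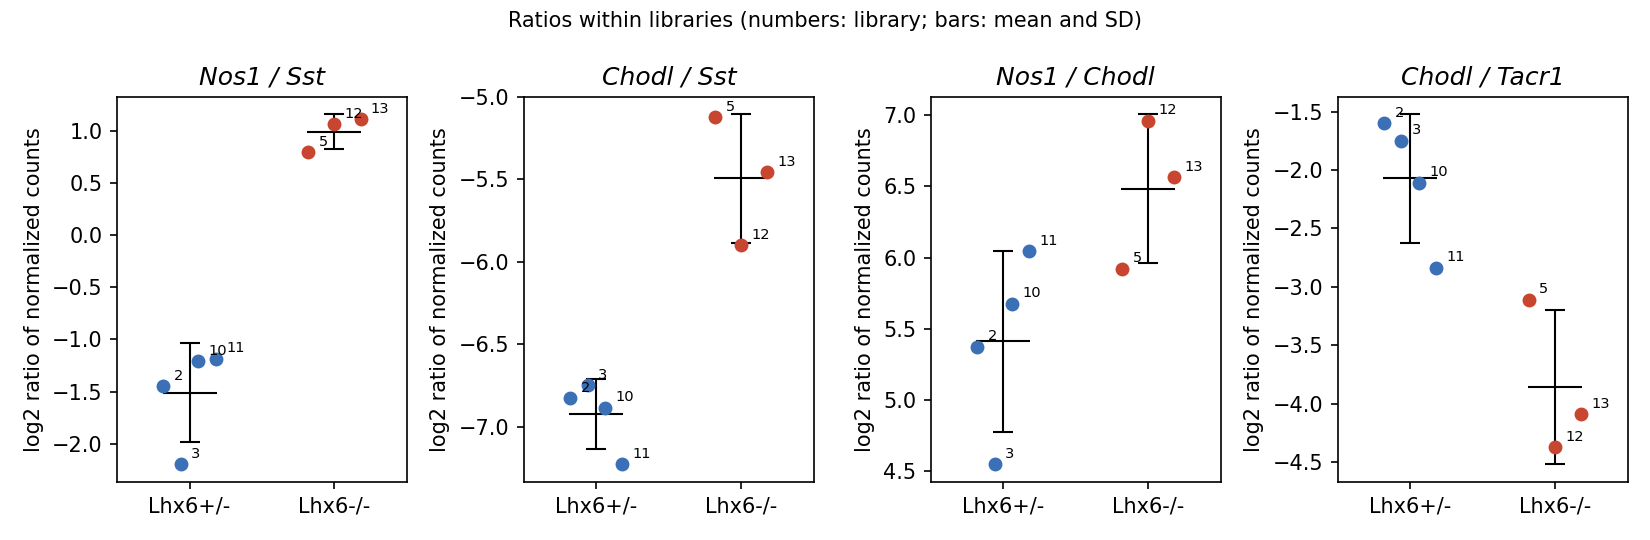
Log2 ratio of normalized counts (pseudocount 1) of 2 genes within each library (y axes, linear, not starting at 0) in Lhx6+/- controls (blue, n = 4) and Lhx6-/- mutants (red, n = 3), numbered by library, with mean and SD as black bars. The genotypes do not overlap for Nos1 to Sst, Chodl to Sst and Chodl to Tacr1, and overlap for Nos1 to Chodl, where mutant library 5 lies below control library 11.

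None of the relatives of the 3 genes was called. Of the nitric oxide synthases, Nos2, the inducible form of activated immune cells, stood at 57.7 ± 11.4 and 79.0 ± 20.1 normalized counts in controls and mutants (edgeR adjusted p = 0.387). Nos3, the endothelial form, stood at 503 ± 55.7 and 593 ± 44.3 (edgeR adjusted p = 0.340), with 23.7% of its words of 36 bases shared with other genes. Layn, which encodes layilin, the closest relative of chondrolectin among the listed genes, stood at 134 ± 30.3 and 232 ± 25.8 without overlap, a log2 difference of 0.79 that narrowly missed the threshold (SE 0.188, edgeR adjusted p = 0.0511). Of the other tachykinin receptors, Tacr3 stood at 93.6 ± 27.6 and 62.0 ± 4.40 (log2 difference −0.59, SE 0.245, edgeR adjusted p = 0.243), and Tacr2 had too few counts to be tested. Of the 4 relatives tested with edgeR, 0 were called and 2 had an unadjusted p of 0.05 or less. DESeq2, limma-voom and edgeR with the set as a covariate each called 1, higher. This was Layn, which was also called without control library 2 (edgeR adjusted p = 0.0310).

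Around neuronal nitric oxide synthase, 1 of 13 listed partners and regulators was called higher by edgeR and 0 lower. Over all tested genes 2.97% were called higher and 1.87% lower. The median log2 difference of the list was −0.14 beside −0.01 over all tested genes. The called gene was Ddah1, which breaks down the methylarginines that inhibit nitric oxide synthases. Ddah1 rose from 4650 ± 174 to 8963 ± 703 normalized counts, a log2 difference of 0.95 (SE 0.0815, edgeR adjusted p = 0.000674). Dlg4, the postsynaptic scaffold that tethers the enzyme, stood at 90.7% of control (edgeR adjusted p = 0.528). DESeq2 and edgeR with the set as a covariate each called 1 higher and 2 lower. Over all tested genes DESeq2 called 8.8% in either direction, and edgeR with the covariate called 2205 genes.

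Among genes that supply the substrate arginine and the cofactor tetrahydrobiopterin, edgeR called 0 of 10 tested, with 4 at an unadjusted p of 0.05 or less. DESeq2 called 2 higher and limma-voom 0, and edgeR with the set as a covariate called 3 higher. Slc7a1, the cationic amino acid transporter that takes up arginine, stood at 3127 ± 613 and 3857 ± 539 normalized counts in controls and mutants and was not called (edgeR adjusted p = 0.361). It was called higher with the set as a covariate (log2 difference 0.37, edgeR adjusted p = 0.0320) and within the high-numbered libraries (0.42, edgeR adjusted p = 0.0116). Qdpr, which recycles the cofactor, stood at 2457 ± 302 and 2197 ± 149 (edgeR adjusted p = 0.493).

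In the arm that answers nitric oxide through cyclic GMP, 2 of 14 genes were called lower by edgeR and 1 higher, a median log2 difference of 0.06. The heme-containing receptor of nitric oxide, soluble guanylyl cyclase, is a dimer of an alpha and a beta subunit. Its alpha subunit Gucy1a3 stood at 2522, 2382, 2644 and 2740 normalized counts in controls 2, 3, 10 and 11 and at 1674, 1873 and 1973 in mutants 5, 12 and 13. All mutants lay below all controls, at 71.5% of the control mean (log2 difference −0.48, SE 0.0861, edgeR adjusted p = 0.0163). The call was lost within the low-numbered libraries (edgeR adjusted p = 0.403) and on leaving out control library 10 (0.0544) or mutant library 5 (0.0689), 12 (0.0707) or 13 (0.0543). The beta subunit Gucy1b3 stood at 83.6% of control, likewise without overlap, and was not called (log2 difference −0.26, SE 0.0875, edgeR adjusted p = 0.155). With the set as a covariate it was called lower (−0.28, edgeR adjusted p = 0.0407).

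Downstream, Prkg2, a protein kinase that cyclic GMP activates, fell to 65.6% of control (log2 difference −0.61, SE 0.135, edgeR adjusted p = 0.0399). It was called in 11 of 19 alternatives, and stood at −0.33 within the low-numbered libraries (edgeR adjusted p = 0.952) and −0.79 within the high-numbered ones (edgeR adjusted p = 0.00678). Its call was also lost with no filter (edgeR adjusted p = 0.0643) and on leaving out any 1 library but control 2, with edgeR adjusted p-values from 0.0574 (without control library 3) to 0.190 (without mutant library 13). Pde1c, a calcium-dependent phosphodiesterase that degrades cyclic nucleotides, rose from 180 ± 34.6 to 388 ± 35.7 normalized counts (log2 difference 1.11, SE 0.165, edgeR adjusted p = 0.00771). The log2 differences of these genes are drawn beside those of the members.

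**Figure D4:**
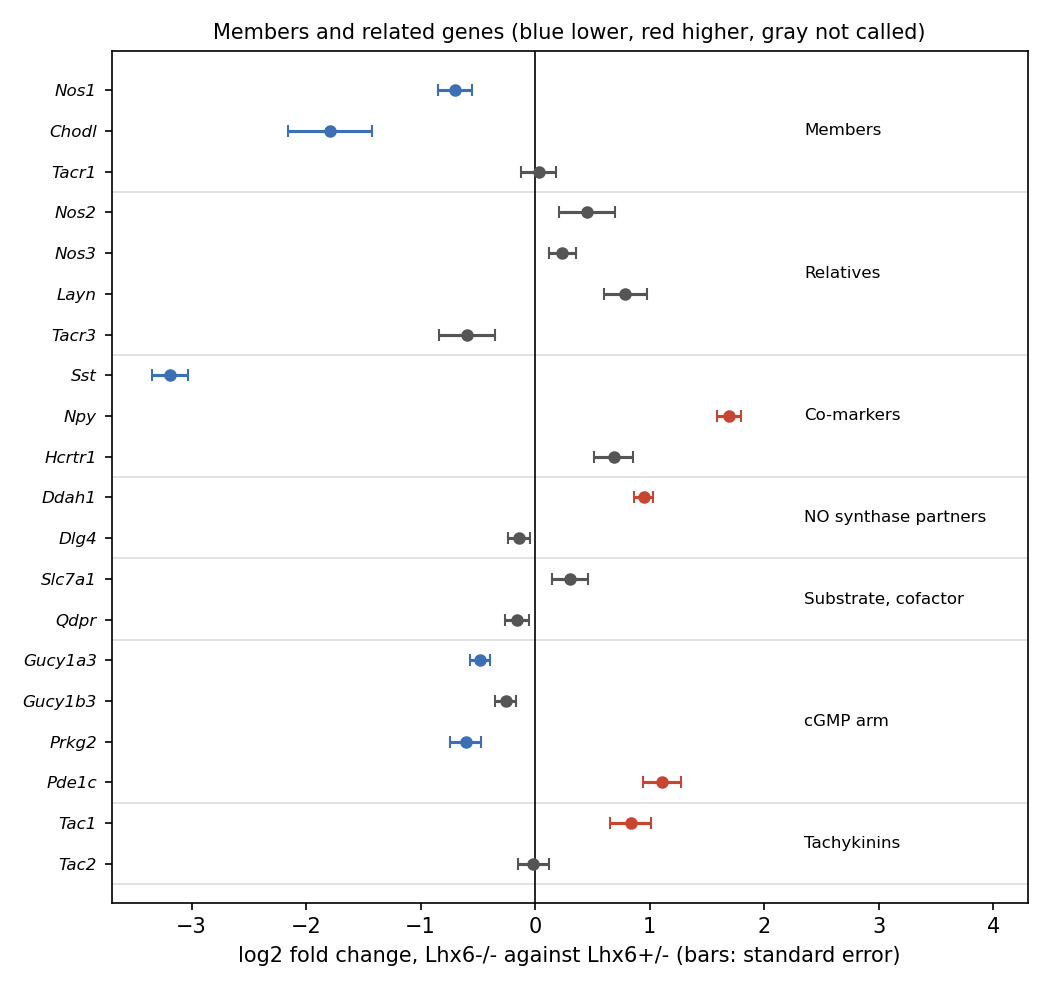
Log2 fold change of Lhx6-/- against Lhx6+/- (x axis, linear) for Nos1, Chodl, Tacr1 and related genes (y axis, by group), as points with standard errors, blue where called lower, red where called higher and gray where not called by edgeR at an adjusted p of 0.05. Nos1 at −0.70 and Chodl at −1.79 lie left of 0 with Sst at −3.19, Tacr1 lies at 0.03, and Npy, Ddah1, Pde1c and Tac1 lie to the right.

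The ligand side of Tacr1 differed from the receptor. Tac1, the precursor of substance P, stood at 385, 547, 438 and 591 normalized counts in controls 2, 3, 10 and 11 and at 699, 939 and 983 in mutants 5, 12 and 13. Every mutant lay above every control, and the mean rose to 178% of control (log2 difference 0.83, SE 0.177, edgeR adjusted p = 0.0333). The call was lost within the low-numbered libraries (0.58, edgeR adjusted p = 0.464) and on leaving out control library 2 (0.0685) or 10 (0.0894) or mutant library 12 (0.129) or 13 (0.151). Tac2, the precursor of neurokinin B, which acts on Tacr3, stood at 214 ± 24.8 and 211 ± 18.3 (edgeR adjusted p = 0.967). Of the 5 tachykinin peptides, receptors and peptidases tested, Tac1 was the 1 called.

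The wider interneuron lists place these values. Of 11 genes of MGE-derived interneurons, 6 were called lower and 2 higher (median log2 difference −0.45), among the former Sst and Pvalb (−3.05, edgeR adjusted p = 0.000389) and the latter Cort and Crhbp, which rose by 1.93 and 0.93. Lhx6 is on that list because it was the gene removed. Of 13 genes of interneurons from the caudal ganglionic eminence (CGE), 5 were called higher and 0 lower (median 0.37; 8 at an unadjusted p of 0.05 or less, and 5 higher and 0 lower by DESeq2), among them Vip and Cck, which rose by 0.94 and 0.87. The low-numbered libraries alone did not call Crhbp, Vip or Cck (edgeR adjusted p = 0.203, 0.121 and 0.0853), and the call of Vip was lost without mutant library 12 or 13 (edgeR adjusted p = 0.0685 and 0.0804).

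Tacr1 and Nos1 are also expressed by other cells that the dissection could hold, and their markers were read in the same libraries. Of 7 genes of forebrain cholinergic neurons 1 was called, Lhx8, which rose by 1.38 (edgeR adjusted p = 0.0370), and 3 were called higher with the set as a covariate. Lhx8 was called in 12 of 19 alternatives: the call was lost within the low-numbered libraries (1.03, edgeR adjusted p = 0.808) and without any 1 library but control 3 (edgeR adjusted p-values from 0.0692 without control library 2 to 0.149 without mutant library 13), and DESeq2 with its shrinkage prior gave 0.80. The summed level of the list was 359 to 529.5 normalized counts in controls and 423 to 664 in mutants. Of 6 genes of striatal projection neurons edgeR, DESeq2 and limma-voom called 0, with 0 at an unadjusted p of 0.05 or less (10258 to 15829 and 12262 to 18636 summed). Of 5 tested hypothalamic genes 1 was called higher (2 with the set as a covariate), and of 4 of the olfactory bulb 1 was called higher and 1 lower. The cerebellar and hindbrain list summed to 26.9 to 94.4 in controls, with library 3 highest, and to 30.3 to 43.1 in mutants, and 0 of its 2 tested genes were called by any of the 3 tools or had an unadjusted p of 0.05 or less. Of 6 genes of forebrain excitatory neurons 1 was called higher (1 higher and 1 lower with the set as a covariate). The part of these cells in the levels of Nos1 and Tacr1 was not tested.

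Outside neurons, 1 of 5 astrocyte genes was called higher and 2 of 4 oligodendrocyte genes lower by edgeR, and 2 and 4 with the set as a covariate. Of 5 endothelial genes edgeR called 0, with 3 at an unadjusted p of 0.05 or less, and DESeq2 called 1 higher and limma-voom 0. With the set as a covariate, and within the high-numbered libraries, edgeR called 3 of the 5 higher. Both settings also called more of all tested genes, 2205 with the covariate against 954 in the main fit. Of 4 microglial genes edgeR, DESeq2 and limma-voom called 0, with 1 at an unadjusted p of 0.05 or less, and edgeR with the set as a covariate called 1 lower. The summed level of the oligodendrocyte list was 187207 to 244271 normalized counts in controls and 135489 to 167149 in mutants, without overlap, and the part of this in the share of reads left for other genes was not tested.

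Among the other genes with a mean of at least 1 CPM (15761 for Nos1 and Tacr1, 15762 for Chodl, whose own mean was lower), the profiles most like that of each member over the 7 libraries were found by the root mean square difference between log2 CPM values centered on their means. For Nos1 they were Cdh24 (0.0566), Homer2 (0.0745) and Grin2d (0.0937), against a spread of 0.39 of Nos1 about its own mean. All 3 had their lowest control value in library 3, as Nos1 did: Homer2 stood there at 2735 normalized counts, with the other controls between 3601 and 3785 and the mutants between 2238 and 2318. Homer2 was called lower (log2 difference −0.61, edgeR adjusted p = 0.0238), and Cdh24 and Grin2d, at −0.65 and −0.71, were not (edgeR adjusted p = 0.0565 and 0.0659). Each of these calls turned on the setting: Cdh24 and Grin2d were called in 6 of 19 alternatives, among them the set as a covariate (edgeR adjusted p = 0.0232 and 0.0372) and leaving out control library 3 (0.00677 and 0.0117). Homer2 lost its call within the low-numbered libraries (edgeR adjusted p = 0.487) and on leaving out any 1 library but control 3 (0.0525 without control library 2 to 0.110 without mutant library 13).

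For Chodl the nearest was Grp, the precursor of gastrin-releasing peptide, at 0.0989 against a spread of Chodl of 0.91. Grp stood at 485, 519, 345 and 263 normalized counts in controls 2, 3, 10 and 11 and at 148, 78.7 and 101 in mutants 5, 12 and 13. Its libraries followed the order of Chodl exactly, from control library 3 down to mutant library 12, and it was called lower (log2 difference −1.88, SE 0.296, edgeR adjusted p = 0.0102), a call lost without mutant library 13 (edgeR adjusted p = 0.0640). The next, Myh4 (0.248) and AF529169 (0.320), were much less near, and 26.5% of the words of Myh4 are shared with other genes.

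For Tacr1 the nearest were Zfp229 (0.0789), RP23-474B17.2 (0.0794) and B9d2 (0.0858), against a spread of 0.16. None of these was called by edgeR (adjusted p of 0.800 to 0.967). Seen from Nos1, 92.5% of the ranked genes had a nearer profile than Chodl and 62.9% a nearer one than Tacr1. Seen from Chodl, whose profile few genes approached, 3.25% were nearer than Nos1 and 65.8% nearer than Tacr1, and seen from Tacr1, 90.1% were nearer than Nos1 and 98.4% nearer than Chodl. Likeness over 7 libraries rests largely on the fold change between the genotypes and on the libraries that stand apart, and is given as a description.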

How the data were processed

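Forebrain total RNA was prepared with the Illumina TruSeq kit and sequenced as 36 bp single-end reads on an Illumina GA IIx. The submitters' processing notes name cutadapt 1.9.1, Bowtie2 2.2.9 and RSEM 1.2.31, and the build GRCm38. The authors deposited RSEM expected counts per gene, without normalization, for 4 control and 3 mutant pools. RSEM divides reads that match several genes, and between 32.9% and 36.0% of the genes' values in a library were not whole as deposited. A further deposited table holds the authors' own DESeq2 comparison (log2 fold change, standard error, Wald statistic and p-values). Its gene symbols were used and its other columns were not. Positions, exons and overlaps came from the deposited exon annotation, and shared words from GENCODE transcripts on GRCm38. The transcription starts and the sequences before them came from RefSeq. Whether counting used strand is not given in the sources used here. Column names give genotype and library number only, so the sex and RNA integrity of a pool entered no fit. Other columns of per-sample values left unused numbered 0.

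Counts were rounded, filtered (at least 10 in at least 3 libraries), scaled by TMM and tested with edgeR 4.0.16 (R 4.3.3) by the quasi-likelihood F-test on genotype, with Benjamini-Hochberg adjustment over all 19684 genes and a threshold of 0.05. Normalized counts are counts over effective library size, relative to its mean. Log2 CPM used a prior count of 2. Ratios used a pseudocount of 1 on the log2 scale and an exact permutation test, with p as 2 times the smaller tail. That form replaced a p first computed on the absolute difference. Precision is set by 32556304 to 38069151 counts per library and 3 or 4 pools a genotype. Within a genotype, pairs of libraries differed by a chi-square of 9.93 to 70.4 per degree of freedom, so each counted as 1 replicate. Alternatives were DESeq2 1.42.0 with and without its prior, limma-voom (limma 3.58.1), other scalings and filters, unrounded and thinned counts, sets of libraries and leaving out each library. A term for the difference between library sets was added after seeing the data.

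The genes and the 19 lists of 138 genes (127 tested) were chosen with earlier results of these data known. Named were the members, their relatives and co-markers, Lhx6, called genes and abundant uncalled genes of the lists, and the 3 nearest profiles per member. Which uncalled list genes are named was settled after their values were seen. Some listed genes are not reported here. Tests were checked on simulated data. The check first missed its criterion for the share of changed genes recovered. It met the criterion after being restricted to genes with a mean of at least 1 CPM, which leaves out genes at the level of Chodl.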

Additional observations from a re-analysis of the deposited data

Results flagged for a closer look

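Of 39 genes examined for a control library far from the others, 1 passed Dixon's criterion for 4 samples. Qdpr, which recycles the cofactor of nitric oxide synthases, stood at 2906 normalized counts in control library 3 and at 2266, 2357 and 2299 in control libraries 2, 10 and 11, a ratio of gap to range of 0.857. Chance passes about 1 in 20 groups. Nos1, where library 3 was the low control, reached 0.790, below the criterion.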

How the results depend on the processing

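Nos1 and Chodl kept their direction under every alternative run (19 and 18), and were called in 12 and 13 of them. Within libraries 2, 3 and 5, Nos1 was −0.61 and Chodl −1.57, both uncalled, with 1 mutant library whose spread was taken from the controls. On leaving out 1 library at a time, Nos1 ranged from −0.83 to −0.63, Chodl from −2.14 to −1.57 and Tacr1 from −0.050 to 0.13. Tacr1 turned to −0.0039 with the library set as a covariate and to −0.0996 within libraries 2, 3 and 5, and was called nowhere. The count of called genes was 954, and became 1731 with DESeq2, 1734 with its prior, 2205 with the covariate, 1858 within libraries 10 to 13, 308 within libraries 2, 3 and 5, and 302 to 971 on leaving out 1 library. Upper quartile scaling split the calls into 311 lower and 653 higher, against 369 and 585. The 6 ratios kept their direction under each of 11 alternatives. Uncalled genes near 0 changed sign: Tac2 (−0.02) to 0.0055 with upper quartile scaling, 0.0190 with the covariate, 0.070 within libraries 10 to 13 and −0.080 to 0.052 on leaving out 1 library, B9d2 (−0.02) to 0.0087 with upper quartile scaling, 0.0359 within libraries 10 to 13 and −0.056 to 0.051, and Zfp229 (−0.07) to −0.13 to 0.057. With a prior count of 1, Ngb replaced AF529169 among the profiles nearest to Chodl. Chodl had no value where all 7 libraries had to hold 10 counts, having 8 in mutant library 12. Its call was lost without control library 2 or 10 or mutant library 12 or 13. The call of Nos1, with far more counts, was lost on leaving out any 1 library but control 3. The cause of these losses, read depth included, was not tested. No paired analysis was possible because the columns carry library numbers and not the replicate numbers of the labels.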
